A study of Rattus norvegicus with 24 samples.

Results

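MiRNA levels in blood mononuclear cells late in collagen-induced arthritis (CIA), in the arm that served as the control for the anaesthetic, were compared with those of healthy animals. The members are 4 of the 24 arrays of the series, chosen by their titles, with 2 replicates of ANE at 34 days and 2 of NORA at 34 days. All animals were female Wistar rats. ANE animals were arthritic, having been immunised with bovine type II collagen in an adjuvant and boosted, and received isoflurane as the inhaled anaesthetic where the placebo (PLA), needle (AP) and methotrexate (MTX) arms received ether at blood sampling. NORA animals were healthy and untreated (NOCIA in the study), and their anaesthetic is not given in the sources used here. The groups thus differ in arthritis and possibly in anaesthetic, and these cannot be told apart. The label of NORA at 34 days contradicts itself, with 34 days in its title and in 1 description line and 1 hour in another, and the title was followed. Each array carried RNA of its own blood sample. The age of the animals is not given in the sources used here, and nothing in the labels says that an array pooled several animals.

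A miRNA is a short RNA, cut from a hairpin precursor, that guides a silencing complex to messenger RNAs. Bases 2 to 8 from its 5′ end, the seed, do most of the pairing, so that miRNAs with one seed share many targets. Each hairpin can yield a miRNA from either arm, and in the older names used on this array a star marks the less abundant strand. Blood mononuclear cells are lymphocytes and monocytes separated on a density gradient. miR-142 marks all leukocytes, miR-150 lymphocytes and miR-223 myeloid cells, while miR-451 and miR-144 belong to red cells and their precursors, which can remain in such a preparation. In arthritis, miR-146a and miR-155 are the best known members, both induced by NF-kB signalling.

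The sequences of the miRNAs on which the results turn are shown here, from RefSeq on build GRCr8, with the seed in capitals. Of the 210 miRNAs tested, 44 matched an entry by exact name and 23 by the old name of the strand. miR-484, at chr10:1394915-1394936 on the minus strand, had the largest difference among miRNAs detected on all 4 arrays. miR-144*, miR-144 and miR-451 lie within chr10:63459409-63459634 on the plus strand and were shown because all 3 were higher in ANE.
miR-484: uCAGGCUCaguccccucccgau
miR-144*: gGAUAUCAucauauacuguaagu
miR-144: uACAGUAUagaugauguacu
miR-451: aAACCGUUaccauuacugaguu
miR-144 and miR-144* are the strands of 1 hairpin and differ in seed, and miR-451 shares a seed with neither. A set of 3 miRNAs of different loci that do share a seed is given for contrast. miR-25 lies within the span of Mcm7 at chr12:22156652-22156673, miR-32 within that of Tmem245 at chr5:76391328-76391349, and miR-92a has 2 loci.
miR-25: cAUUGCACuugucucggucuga
miR-92a: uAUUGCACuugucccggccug
miR-32: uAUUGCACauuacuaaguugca
The last set was detected on both ANE arrays and on neither NORA array. miR-290 lies at chr1:74880106-74880123 within the span of Nlrp12, miR-139-5p at chr1:165290865-165290886 within that of Pde2a, and let-7b* at chr7:118684098-118684119.
miR-290: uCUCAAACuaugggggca
miR-139-5p: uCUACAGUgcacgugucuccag
let-7b*: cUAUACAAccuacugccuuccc

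Levels are the total intensity of a miRNA, on the log2 scale with a floor of 2.53, after each array was set to a common 75th percentile of the 132 miRNAs detected on all 24 arrays. The 210 of the 677 miRNAs on the array that were detected on at least 3 of the 24 arrays were tested. Of the 677, 173 and 170 were detected on the NORA arrays and 179 and 171 on the ANE arrays. Their summed intensity before scaling was 206949 and 226165 in NORA and 237650 and 181212 in ANE, and no spot was saturated. Detection on all 4 arrays was found for 155 miRNAs, and 483 were detected on none of the 4. All 4 arrays lie in 1 row of 1 slide, so a difference between slides cannot enter the comparison.

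The labelled cells were checked against their markers. miR-142-3p was at 13.40 and 13.49 in NORA and at 13.33 and 13.48 in ANE. The lymphocyte miRNA miR-150 was at 13.02 and 12.44 in NORA and at 12.56 and 13.38 in ANE, and the myeloid miR-223 at 12.97 and 12.98 against 12.74 and 12.55. All these markers were detected on every one of the 4 arrays. None of the 4 muscle miRNAs (miR-1, miR-133a, miR-133b and miR-206) was detected on any of the 4 arrays, and of the 6 epithelial ones only miR-203 was detected, on 1 NORA array. Of the 3 liver miRNAs, miR-122 was detected on ANE replicate 2 alone, at 3.92. Detected on all 4 arrays were miR-192 (4.37 and 4.21 in NORA, 4.26 and 4.55 in ANE) and miR-194 (3.82 and 3.70, 3.83 and 3.82). So were the neural miR-128, at 11.90 and 11.84 against 11.81 and 11.26, and the red cell miRNAs and miR-126 given below. The other neural ones, miR-124 and miR-9, were detected on none of the 4.

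The comparison asked how far the miRNA profile of arthritic animals differed from that of healthy ones late in the disease without a therapy. No miRNA was called in ANE against NORA. With limma fitted over all 24 arrays, 0 of 210 miRNAs (0%) had an adjusted p under 0.05, and the smallest adjusted p was 0.26. An unadjusted p under 0.05 was found for 8, of which 6 were higher in ANE (2.86% of 210) and 2 lower (0.952%). The study's threshold, which asks for detection on every array compared, a change over 2-fold and an unadjusted p under 0.05, was passed by 2 miRNAs (0.952%), miR-484 and miR-1*, both higher in ANE. Both ANE arrays lay above both NORA arrays for 42 miRNAs (20%) and below them for 43 (20.5%).

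Most differences were small. The median difference was 0, with 98 miRNAs above 0 and 97 below, and the median absolute difference was 0.18 on the log2 scale, and 158 of the 210 (75.2%) differed by less than 0.5. Without scaling the median was -0.16, with 56 above 0 and 154 below, and with the 75th percentile taken over all miRNAs it was -0.27, with 48 above and 161 below. Of the 155 miRNAs detected on all 4 arrays, 75 lay above 0 and 80 below in the main scaling, with a median of -0.02. Among these 155, 8 differed by more than 1, and these 8 were all higher in ANE. The median 95% interval of a difference, not adjusted for the number of miRNAs, reached 0.74 to either side with 2 arrays a group. A call after adjustment asks for at least that in a typical miRNA. In simulations of this comparison, 51.2% of changes of 1 and 81.2% of changes of 2 on the log2 scale were called. These had 40 of the 210 miRNAs changed at once, with normal noise and no floor. Fewer changed miRNAs were not simulated.

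**Figure D1:**
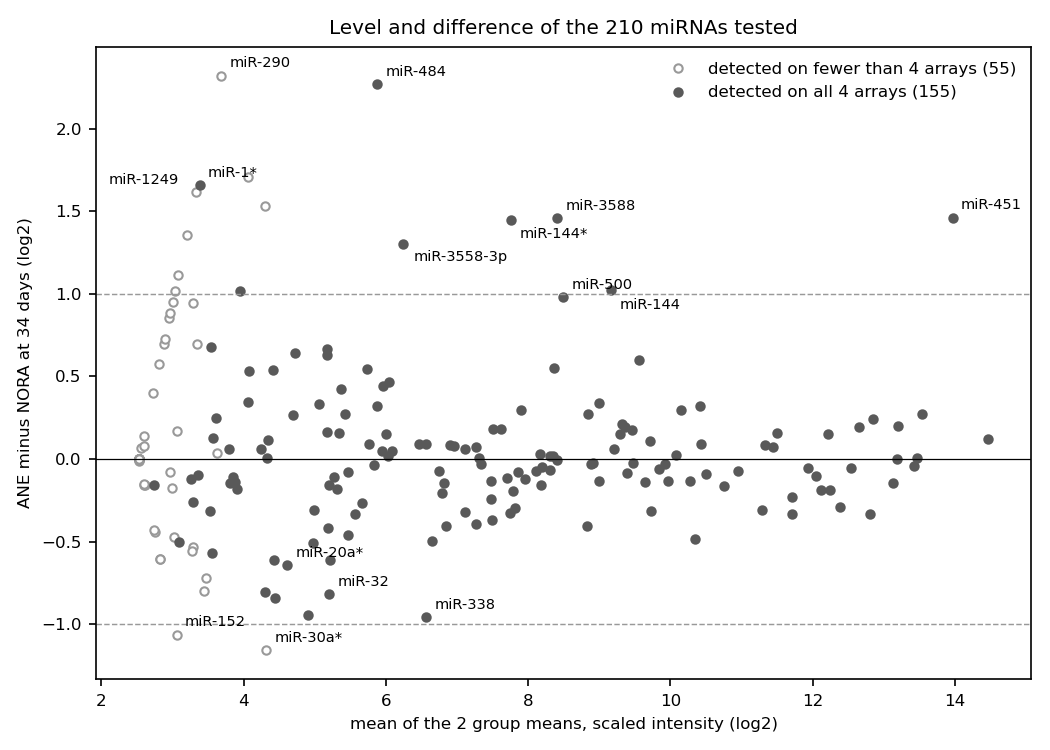
Difference between ANE and NORA at 34 days (log2, y axis) against the mean of both group means (log2 scaled intensity, x axis) for the 210 miRNAs tested. Filled points were detected on all 4 arrays and open points on fewer, and dashed lines mark a difference of 1 in either direction. Filled points beyond 1 lie above the upper line only, with miR-484 highest at 2.27, and miR-30a*, the lowest point at -1.16, was undetected on 1 ANE array.

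miR-484, known for targeting the mitochondrial fission protein Fis1, had the largest difference of the miRNAs detected on all 4 arrays. It was at 4.59 and 4.90 in NORA and at 6.96 and 7.07 in ANE. The replicates lay close together and the groups far apart. The difference was 2.27 (SE 0.61, 95% interval 0.96 to 3.58, limma adjusted p = 0.26), a 4.82-fold higher level. It did not pass the adjusted threshold with the spread shared by all 12 groups. When the fit was limited to the 8 arrays of the slide, the SE was 0.13 and the adjusted p 0.00145.

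The wider spread of miR-484 came from other groups. On the 20 arrays outside the comparison it ran from 4.37 to 7.29 with a median of 4.81. A level near 7 was also found on 1 of the 2 arrays of NORA at 1 hour (6.94, with 5.20 on the other) and on 1 of the 2 of ANE at 1 hour (7.29, with 4.89 on the other). Healthy animals at 1 hour thus included an array nearly as high as the arthritic ones at 34 days. PLA at 34 days, arthritic animals under ether, was at 4.70 and 4.80, next to NORA at 34 days, but on another slide.

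miR-1*, the passenger strand of the muscle miRNA miR-1, was the other miRNA past the study's threshold. It was at the floor and at 2.58 in NORA and at 4.09 and 4.34 in ANE. The groups did not overlap, but both NORA values lay at or next to the lowest measurable level. The difference was 1.66 (SE 0.58, adjusted p = 0.794). With the mean processed spot signal it was 0.32, and in the log2 values of the authors it was 0.19. The partner strand miR-1 was not detected on any of the 4 arrays. Healthy animals at 1 hour, on another slide, were at 4.67 and 4.37 for miR-1*. Of the 20 other arrays, 7 were at or above its lower ANE value.

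The red cell miRNAs lay higher in ANE, although none passed the test. miR-451, which is cut by Argonaute 2 without Dicer and is needed for red cell maturation, was at 12.81 and 13.66 in NORA and at 14.42 and 14.98 in ANE. miR-144* was at 6.59 and 7.48 against 8.33 and 8.65. miR-144 was at 8.23 and 9.07 against 9.64 and 9.70. In all 3 both ANE arrays lay above both NORA arrays, as they did for 20% of all miRNAs tested, and in all 3 the lower value of NORA was that of replicate 1. The differences were 1.46 (SE 0.94) for miR-451, 1.45 (SE 0.91) for miR-144* and 1.02 (SE 0.95) for miR-144, each with an adjusted p of 1. The summed intensity of the 3 was 7580 and 13700 in NORA and 23000 and 33500 in ANE. The direction was the same in all 3 under each of the other scalings and signals, with a median from 0.90 to 1.45.

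The 95% intervals of these 3 differences included 0, and the locus also varied within other groups. miR-451 ran from 11.15 to 15.16 on the 20 other arrays, and within arthritic animals before therapy the replicates were at 14.68 and 12.05. PLA at 34 days, on another slide, was at 14.15 and 14.07, and 4 of the 20 other arrays reached the lower ANE value. More red cells in a preparation and more RNA per cell cannot be told apart in bulk samples, here or in any list below. What part this locus had in the differences of other miRNAs was not tested.

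**Figure D2:**
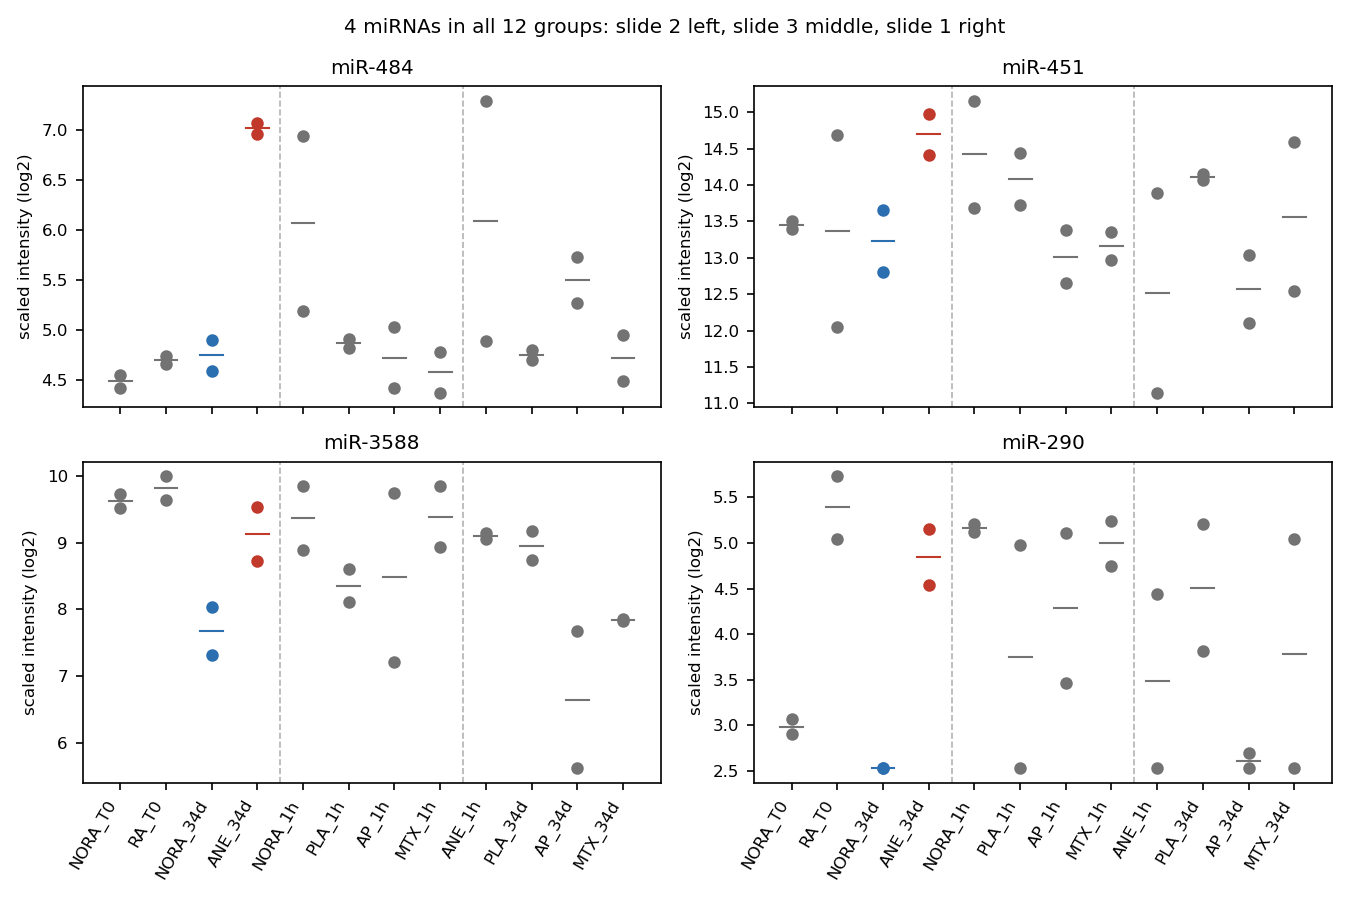
Scaled intensity (log2, y axis) of miR-484, miR-451, miR-3588 and miR-290 in all 12 groups (x axis), with the 2 arrays of each group as points, their mean as a line and slides parted by dashed lines. Blue marks NORA and red ANE at 34 days. The 2 ANE points of miR-484 lie at 6.96 and 7.07, with 1 array each of NORA and ANE at 1 hour at 6.94 and 7.29, and the range of miR-451 within several other groups exceeds the gap between blue and red.

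After these, the highest differences fell on less studied miRNAs. miR-3588 was at 8.04 and 7.31 in NORA and at 8.72 and 9.54 in ANE, a difference of 1.46 (SE 0.73, adjusted p = 1). NORA at 34 days was the low side here, since healthy animals before therapy, on the same slide, were at 9.72 and 9.52. Of the 20 other arrays, 13 were at or above the lower ANE value. miR-3558-3p was at 6.0 and 5.19 against 6.39 and 7.40, a difference of 1.30 (SE 1.12).

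miR-500 was at 8.20 and 7.80 in NORA and at 8.66 and 9.30 in ANE, a difference of 0.98 (SE 0.53, adjusted p = 1). NORA at 34 days was again the low side, since healthy animals before therapy, on the same slide, were at 9.35 and 8.80. Of the 20 other arrays, 14 were at or above the lower ANE value. miR-500 is 1 of 6 miRNAs measured from a cluster at chrX:17919195-17930716, with miR-188, miR-362, miR-362*, miR-532-3p and miR-532-5p. All 6 had differences above 0, from 0.09 to 0.98 with a median of 0.33, and in 3 of the 6 both ANE arrays lay above both NORA arrays, as they did for 42 of all 210 miRNAs (20%). That direction was not shared by every scaling, since 2 of the 6 fell below 0 with no scaling and with the 75th percentile taken over all miRNAs.

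Among miRNAs lower in ANE, differences were smaller. miR-338, which lies within the span of Aatk, was at 7.24 and 6.85 in NORA and at 6.41 and 5.76 in ANE, a difference of -0.95 (SE 0.51, adjusted p = 1). miR-20a*, the passenger strand of miR-20a, a growth-promoting miRNA clustered with miR-17-5p, was at 4.96 and 4.90 against 4.65 and 3.93, a difference of -0.64 (SE 0.27, unadjusted p = 0.0307, adjusted p = 0.922). Its ANE replicates differed by more than the gap between the groups. NORA at 34 days was the high side for these 2 miRNAs. On the same slide, healthy animals before therapy were at 6.50 and 6.56 for miR-338 and at 4.45 and 4.28 for miR-20a*. Replicate 2 was the lower of the ANE arrays in both.

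The same held for the other 6 of the 8 lowest. miR-339-5p was at 4.77 and 4.96 in NORA and at 4.63 and 3.42 in ANE, and miR-32 at 5.38 and 5.84 against 5.23 and 4.36. The remaining 4 were miR-450a (-0.61), miR-33 (-0.57), a regulator of cholesterol export, miR-10a-5p (-0.51), encoded among the Hox genes, and let-7d* (-0.50). With the normexp spot signal miR-20a* and all of these but miR-32 lay between 0.01 and 0.05 above 0. ANE replicate 2 gave the lowest value of the 4 arrays in all 8, and it gave the highest in all 8 of the highest differences. Before therapy, healthy animals were below NORA at 34 days for miR-339-5p (4.13 and 3.81) and miR-32 (5.16 and 5.21). For let-7d* 1 of these healthy arrays, at 3.55, lay above NORA at 34 days.

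**Figure D3:**
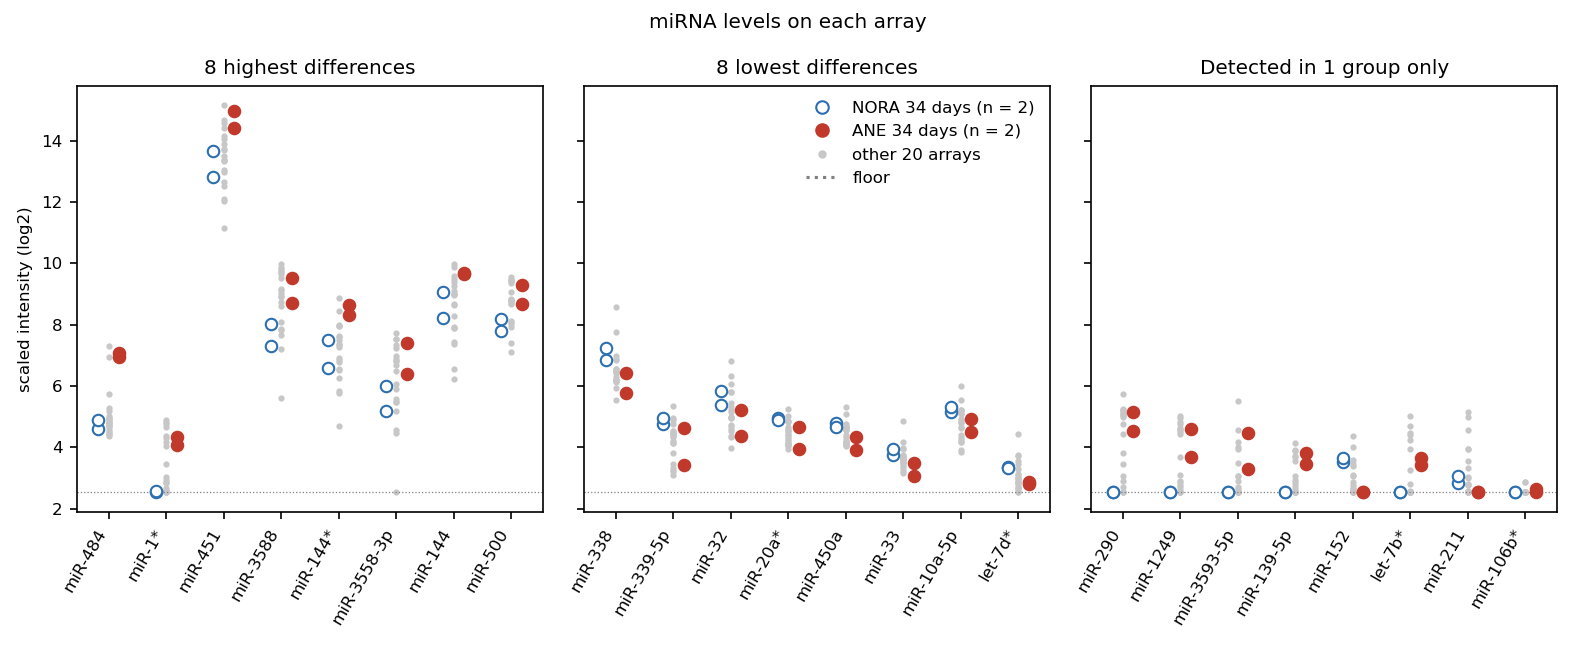
Scaled intensity (log2, y axis) of the 8 miRNAs with the highest and the 8 with the lowest differences among those detected on all 4 arrays whose groups did not overlap, and of the 8 detected on both arrays of 1 group and neither of the other (x axis). Open blue points are the 2 NORA and filled red points the 2 ANE arrays at 34 days, grey points the other 20 arrays and the dotted line the floor. Most red and blue points lie inside the grey range, which for miR-484 reaches 7.29 and for miR-290 runs from 2.53 to 5.73.

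Detection set 8 of the 677 miRNAs on the array apart. Of these, 6 were measured on both ANE arrays and neither NORA array, and 2 the other way round. Detection also differed between replicates of a group. It was found on 1 ANE array alone for 8 miRNAs, on 1 NORA array alone for 6 and on 1 array of each group for 8. A further 6 were detected on both NORA arrays and 1 ANE array, and 3 on both ANE arrays and 1 NORA array. Where a group was not detected its level is only a bound, set at the weakest signal of any detected miRNA on that array, or at the miRNA's own value where that is higher. The folds given as "at least" hold for the total intensity with this bound only. Some other settings gave smaller differences. miR-290, whose mouse counterpart belongs to a cluster active in early embryos and stem cells, was at 4.54 and 5.15 in ANE, at least 4.96-fold higher than in NORA (adjusted p = 0.794). On the same slide it was also undetected on both arrays of healthy animals before therapy and at 5.73 and 5.05 in arthritic ones. Healthy animals at 1 hour, on another slide, were nevertheless at 5.12 and 5.21.

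miR-1249 was at 4.60 and 3.68 in ANE, at least 3.04-fold higher, miR-3593-5p at 3.30 and 4.46, at least 2.54-fold higher, and miR-139-5p at 3.47 and 3.81, at least 2.15-fold higher. let-7b*, the passenger strand of let-7b, was at 3.43 and 3.66, at least 2.01-fold higher (adjusted p = 0.26). On the same slide miR-1249, miR-139-5p and let-7b* were also undetected in healthy animals before therapy. Healthy animals at 1 hour, on another slide, nevertheless had levels as high as those in ANE. They were at 4.63 and 3.69 for miR-1249, 3.68 and 3.55 for miR-139-5p and 4.47 and 4.38 for let-7b*. miR-106b* was at 2.55 and 2.65, at least 1.04-fold higher, which is hardly above the floor. In the other direction, miR-152, a known repressor of the DNA methyltransferase Dnmt1, was at 3.52 and 3.66 in NORA and undetected in ANE, at least 2.00-fold lower. miR-211 was at 2.85 and 3.07 in NORA, at least 1.29-fold lower in ANE. With only the 8 arrays of the slide in the fit, let-7b* (adjusted p = 0.0081), miR-152 (adjusted p = 0.0081) and miR-290 (adjusted p = 0.0206) passed beside miR-484. The floor gave let-7b*, miR-152 and miR-290 no spread at all in their undetected group. With the normexp spot signal miR-152 and miR-211 lay above 0, at 0.07 and 0.06. Those higher in ANE did not turn below 0 in any other setting, but shrank in some. Their smallest differences were 0.22 for miR-290, 0.23 for miR-1249, 0.26 for miR-3593-5p, 0.14 for miR-139-5p, 0.07 for let-7b* and 0 for miR-106b*.

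The inflammation list held 9 miRNAs, of which 8 were on the array under their names, 5 were tested and 0 had an unadjusted p under 0.05, against 8 of all 210. Their median difference was 0.12, against 0 over all 210. miR-146a, which damps NF-kB signalling, was at 8.71 and 8.93 in NORA and at 8.92 and 9.40 in ANE. Its relative miR-146b was at 7.50 and 7.34 against 7.62 and 7.58, and was the 1 member of the 5 with both ANE arrays above both NORA arrays, as for 20% of all miRNAs. The difference was 0.34 (SE 0.53) for miR-146a and 0.18 (SE 0.19) for miR-146b. miR-21, a growth-linked miRNA that rises in activated leukocytes, was at 14.36 and 14.46 against 14.67 and 14.40, and miR-125a-5p, a regulator of the NF-kB inhibitor A20, at 5.73 and 5.33 against 5.39 and 4.44. Of the untested members, miR-132, miR-147 and miR-9 were detected on none of the 4 arrays. miR-155 was not matched by name.

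The other cell type lists differed by less than the red cell one, and none had a member that passed the test. The 7 lymphocyte-rich miRNAs had a median difference of -0.06. Both ANE arrays lay below both NORA arrays for 2 of them, miR-181c (-0.37) and miR-181d (-0.30), as for 20.5% of all miRNAs. These 2 are neighbours on chromosome 19. Of the 5 myeloid-linked miRNAs 4 were below 0, with a median of -0.29. miR-223 differed by -0.33 (SE 0.25), miR-23a by -0.29 (SE 0.26) and miR-24 by -0.31 (SE 0.24), and in these 3 both ANE arrays lay below both NORA arrays, as for 20.5% of all miRNAs. The median of the myeloid list stayed below 0 under each of the other scalings and signals. No member of either list had an unadjusted p under 0.05. miR-126, of platelets and endothelium, was at 7.07 and 6.72 in NORA and at 6.74 and 6.76 in ANE. The 3 tested members of its list had a median of 0, the value of miR-222, which was detected on none of the 4 arrays. The other members tested differed by -0.15 (miR-126) and 0.15 (miR-221). Lists of liver (median 0.12), hypoxia (-0.08), neural (-0.33) and epithelial miRNAs (-0.30) had at most 3 members tested each and none with an unadjusted p under 0.05.

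**Figure D4:**
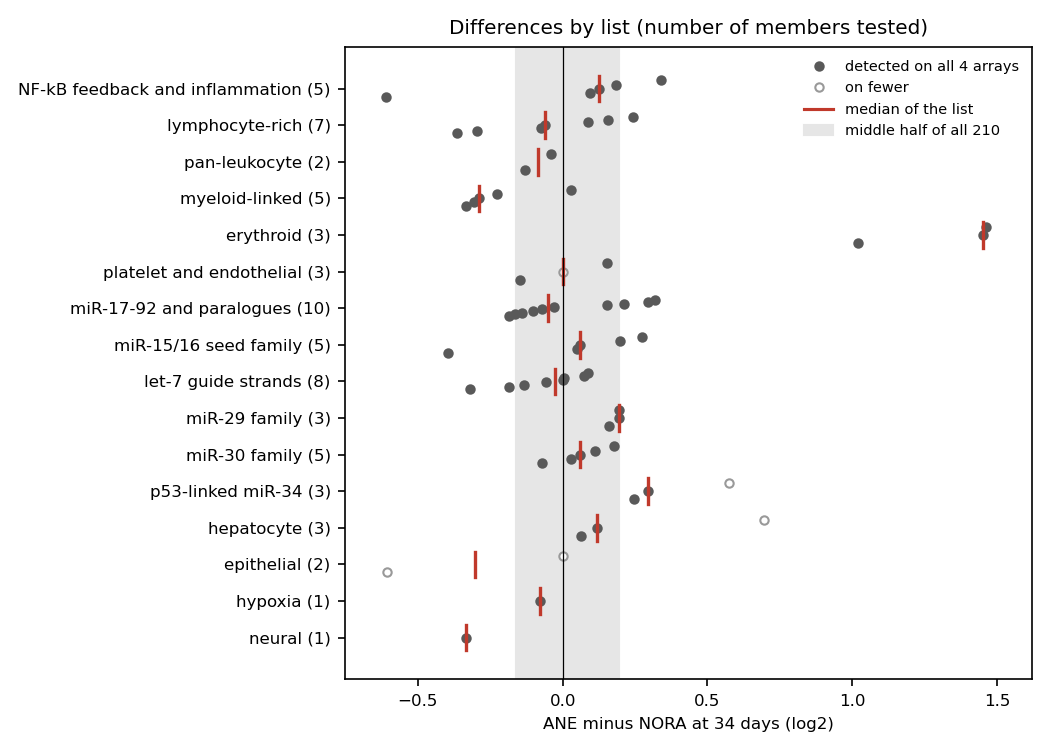
Difference between ANE and NORA at 34 days (log2, x axis) for each tested member of each list (y axis, with the number tested). Points are filled where the miRNA was detected on all 4 arrays, red lines are the list medians, and the grey band holds the middle of all 210 miRNAs, from -0.16 to 0.20. The 3 red cell miRNAs lie at 1.02 or above, while the medians of the other lists lie between -0.33 and 0.30.

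Families defined by seed were described next, and none held a member that passed the test. The 3 miRNAs with the seed of miR-25 shown above differed by 0.30 (miR-25), -0.19 (miR-92a) and -0.82 (miR-32). The pair with the seed of miR-125b-5p differed by 0.09 (miR-125b-5p) and -0.61 (miR-125a-5p). The 5 with the seed of miR-17-5p ranged from -0.16 to 0.32, with 2 above 0. The 5 of the miR-16 family ranged from -0.39 for miR-322 to 0.27 for miR-16, and the 3 of the miR-29 family, which restrain collagen genes, from 0.16 to 0.20. The 8 let-7 guide strands had a median of -0.03, and let-7f was at 13.53 and 13.40 in NORA and at 13.44 and 13.50 in ANE. Neither these lists nor the miR-30 family (median 0.06) and the miR-34 miRNAs (median 0.30), which p53 induces, held a member with an unadjusted p under 0.05.

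Neighbours in the genome were described in the same way. Of the 155 miRNAs detected on all 4 arrays, 125 had 1 locus under their name, and 16 groups of neighbours within 10000 bases on a strand were formed from them. The cluster of miR-106b, miR-93 and miR-25 at chr12:22156652-22157123 had differences from 0.21 to 0.32, with both ANE arrays above both NORA arrays in all 3 (20% of all miRNAs tested), but all 3 were below 0, with a median of -0.03, when scaled by the 75th percentile over all miRNAs. The related cluster of miR-20a and miR-19a at chr15:98587898-98588374 had 4 of 5 below 0. The cluster of miR-23a, miR-27a and miR-24-2* at chr19:40859517-40859798 had all 3 below 0, from -0.31 to -0.23. For 22 hairpins both strands were detected on all 4 arrays, and in 16 of these the strands had differences of the same sign, with a median gap of 0.26.

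ANE replicate 2 stood farther from the healthy animals than replicate 1. Over the 132 miRNAs detected on all 24 arrays, Pearson's r was 0.994 between the NORA replicates and 0.989 between the ANE replicates. ANE replicate 1 correlated with the NORA arrays at 0.988 and 0.990, and ANE replicate 2 at 0.977 and 0.975. Replicate 2 lay farther from the NORA mean for 101 of the 132 miRNAs, and both ANE arrays lay on the same side of that mean for 85. Without ANE replicate 1, 5 miRNAs passed the study's threshold, and without replicate 2, 1 did. No array left out gave a call after adjustment.

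Arthritic and healthy animals were also compared before therapy, and at 1 hour with PLA as the arthritic group, on arrays that the late comparison did not use. Differences at 34 days were set beside these for the 132 miRNAs, which share arrays and are no replicates of each other. Pearson's r was 0.40 with the differences before therapy, measured on the same slide, and -0.64 with those at 1 hour, measured on another slide. Differences between the 2 replicates of a group, set against those of another group, gave r from -0.77 to 0.84 over 66 pairs of groups. Both values lie within that range. The range holds the extremes of 66 values with a median of -0.03, and is of differences between single arrays. It therefore cannot tell whether either r exceeds what replicates would give. Taken for each ANE array against the NORA mean, r with the 1 hour differences was -0.37 for replicate 1 and -0.73 for replicate 2. miR-484 differed by 2.27 at 34 days, 0.21 before therapy and -1.20 at 1 hour. miR-451 differed by 1.46, -0.08 and -0.34, and miR-3588 by 1.46, 0.19 and -1.02.

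Tests of the change in the difference called 2 of 210 miRNAs (0.952%) between 34 days and before therapy, and 0 (0%) between 34 days and 1 hour, where 14 had an unadjusted p under 0.05. Neither call rested on a difference at 34 days. miR-122 was undetected on both NORA arrays at 34 days and at 3.92 on 1 ANE array. Before therapy it was at 7.76 and 7.73 in healthy animals and undetected in arthritic ones, and the difference changed by 5.83 (SE 1.14, limma adjusted p = 0.0182). miR-3593-3p was at 5.39 and 5.17 in NORA and at 5.25 and 5.00 in ANE at 34 days. Before therapy it was undetected in healthy animals, and the difference changed by -2.25 (SE 0.40, adjusted p = 0.0153). Arthritic animals before therapy were at 5.28 and 4.87. No call was left without either healthy array before therapy, replicate 1 of the arthritic animals before therapy, NORA replicate 1 or ANE replicate 2, and 1 was left without replicate 2 of the arthritic animals before therapy or NORA replicate 2. The change of miR-484 between 34 days and 1 hour was 3.47 (SE 0.86, adjusted p = 0.237).

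**Figure D5:**
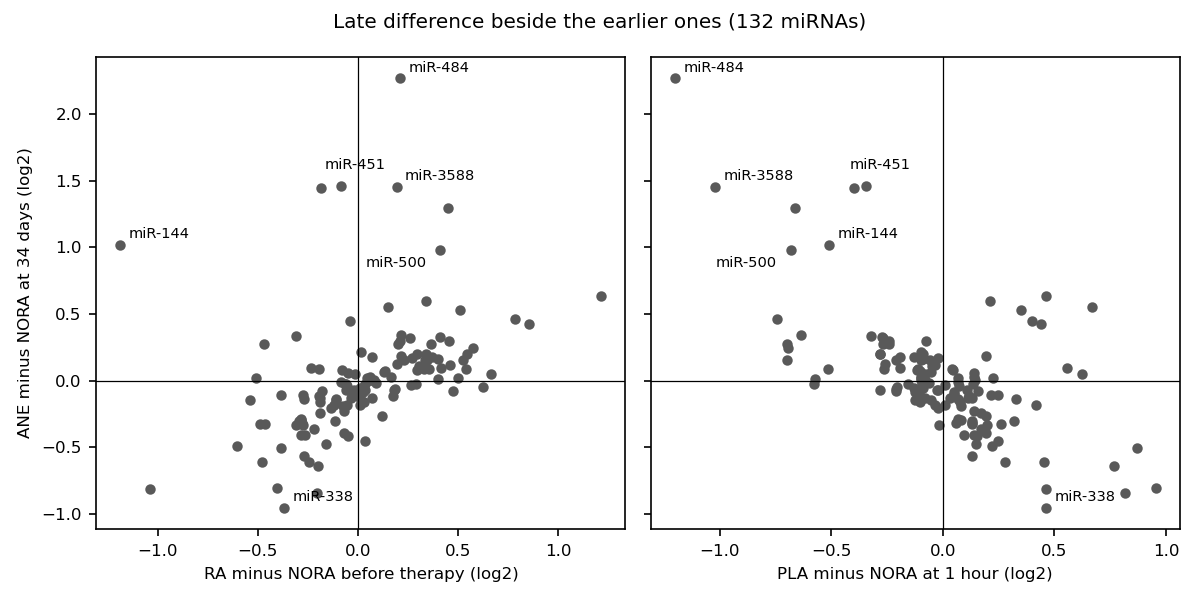
Difference between ANE and NORA at 34 days (log2, y axis) against the difference between arthritic and healthy animals before therapy (left, x axis) and against that between PLA and healthy animals at 1 hour (right, x axis), both log2. Each point is 1 of the 132 miRNAs detected on all 24 arrays. The points rise to the right in the left panel (r = 0.40) and fall in the right panel (r = -0.64), with miR-484 at -1.20 and 2.27 there. Differences between replicates of pairs of groups gave r from -0.77 to 0.84, the extremes of 66 values, which do not test either r.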

How the data were processed

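Groups were taken from the sample labels. Per the labels, total RNA of Ficoll-separated mononuclear cells was labelled with Cy3. The deposited scanner files hold linear intensity values from Agilent Feature Extraction 10.7, background-corrected but not normalised between arrays, with a detection call per miRNA. The authors also deposited a log2 table of the same arrays. The study summarised its raw array signals with AgiMicroRna, and the submitters' processing notes list RMA, with no role given for it.

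Total intensity per miRNA was scaled to the 75th percentile over the 132 miRNAs detected on all 24 arrays. Values were raised to a floor of 5.76 (2.53 as log2), which is the weakest scaled signal of any detected miRNA on an array, as a median over the 24, and then put on the log2 scale. limma 3.58.1 in R 4.3.3 was fitted to the 210 miRNAs with detection on 3 or more arrays, with 12 group means and 12 residual degrees of freedom. All tests were two-sided, with Benjamini-Hochberg adjustment across the 210. The p-values measure the spread between arrays of 2 blood samples a group. The number of arrays limits the precision.

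The fit was tested on simulated data (20 simulations, 40 of 210 miRNAs changed), where 6.36% of calls were false. Named were miRNAs past the study's threshold, the 8 highest and 8 lowest differences among those detected on all 4 arrays whose groups did not overlap, those detected in 1 group only, 2 members of each list and calls in the tests between times. miR-30a*, miR-146a, miR-146b and other list or cluster members given for context were named after their values were seen. The members and lists were chosen with earlier results of these data known.

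The numbers of the replicates were checked for pairing. Over the 66 pairs of groups, the correlation of same-numbered deviations ran from -0.77 to 0.84 and was over 0.1 in 26, so the numbers were not taken to pair the samples. Other scalings, signals, filters, floors and sets of arrays were tried as alternatives. The crossed pairing was added after the data were seen. miR-486 and miR-155 were not matched by name. Sequences came from RefSeq (GRCr8), and no genome was used.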

Additional observations from a re-analysis of the deposited data

Results flagged for a closer look

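Tests of the change in the arthritic minus healthy difference passed for 2 miRNAs between 34 days and before therapy. For miR-122 the difference was higher by 5.83 at 34 days (adjusted p = 0.0182), and for miR-3593-3p it changed by -2.25 (adjusted p = 0.0153). Both rest on the arrays before therapy, as at 34 days miR-122 differed by 0.70 and miR-3593-3p by -0.16. The groups of 2 arrays are too small for a search for single outlying samples.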

How the results depend on the processing

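No call was made in ANE against NORA at 34 days under any alternative except the fit of the 8 arrays of the slide, which made 4, while 8 miRNAs had an unadjusted p under 0.05. The 2 miRNAs past the study's threshold became 4 with the 75th percentile over all miRNAs, 1 with quantile normalisation, the mean processed signal, the authors' log2 table, the filter on all 24 arrays or a doubled floor, and 0 with normexp. Leaving out 1 array gave 1 to 5. With the replicate number as a block the counts were 0 and 2, and with the crossed pairing also 0 and 2, so the block changed no call. miR-484 kept its direction in 20 of 20 settings (0.76 to 2.42, adjusted p 0.00145 to 1).

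The 2 calls before therapy became 4 with the 75th percentile over all miRNAs, quantile normalisation or a lower floor, 0 with the processed signal, normexp, the authors' table or the filter on all 24 arrays, 371 without a filter, 8 on the slide and 7 with only the arrays compared, and leaving out 1 array gave 2 to 3. The 2 calls between 34 days and before therapy became 0 with the 75th percentile over all miRNAs, the processed signal, normexp, the authors' table, the filter on all 24 arrays or a doubled floor, 343 without a filter, 6 on the slide and 6 with only the arrays compared, and 0 to 2 without 1 array. Without a filter all 677 miRNAs were tested, and 432 of these were detected on none of the 24 arrays. The 371 and the 343 calls are more than the miRNAs detected on any array, so both include undetected ones. PLA against NORA at 1 hour gave 0 to 2 without 1 array. The change from 1 hour gave 1 with only the arrays compared and 0 to 1 without 1 array. The causes were not tested.

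The sign of the difference turned 54 times among named miRNAs. Without scaling it turned for miR-21 (-0.071), miR-221 (-0.0425), miR-19b (-0.0427), let-7f (-0.19), miR-30c (-0.0844), miR-30e (-0.0176) and miR-192 (-0.078). With the 75th percentile over all miRNAs it turned for miR-21 (-0.20), miR-150 (-0.0819), miR-221 (-0.17), miR-19b (-0.17), miR-106b (-0.004), miR-16 (-0.0504), let-7f (-0.32), miR-29a (-0.13), miR-30c (-0.21), miR-30e (-0.15), miR-34a (-0.0271) and miR-192 (-0.21). With quantile normalisation it turned for miR-21 (-0.42), miR-221 (-0.18), let-7f (-0.20) and miR-192 (-0.12). With the median scaling it turned for let-7f (-0.11) and miR-30c (-0.0059). With the processed signal it turned for let-7f (-0.0151). With normexp it turned for miR-339-5p (0.0148), miR-20a* (0.0426), miR-450a (0.0052), miR-33 (0.0366), miR-10a-5p (0.0188), let-7d* (0.0541), miR-152 (0.0687), miR-211 (0.0566), miR-125a-5p (0.0025), let-7f (-0.0715) and miR-3593-3p (0.0558). In the authors' values it turned for miR-21 (-0.13), let-7f (-0.11), miR-30c (-0.0073) and miR-192 (-0.0541). Values without 1 array, where the sign turned, ran from -0.32 to 0.0265 for miR-126, -0.17 to 0.65 for miR-150, -0.11 to 0.0334 for miR-142-3p, -0.0619 to 0.0709 for let-7f, -0.01 to 0.26 for miR-21, -0.27 to 0.007 for miR-142-5p, -0.0045 to 0.40 for miR-29a, -0.0665 to 0.29 for miR-30c, -0.029 to 0.26 for miR-192 and -0.38 to 0.23 for miR-210. A further 890 values kept their direction and their side of the threshold, and 4 came past it.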
